A study of Mus musculus with 16 samples.

Results

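The liver X receptors (LXRs) are nuclear receptors that sense oxidised sterols and switch on genes that move cholesterol out of the cell. The 8 genes described here are the receptors Nr1h3 (LXR alpha) and Nr1h2 (LXR beta), and the targets Abca1, Abcg1, Mylip, Srebf1, Lpcat3 and Smpdl3a. They were taken by name, with every probe set whose only annotated gene symbol is one of them, out of 18193 genes with such a probe set. The names were chosen by measured values of the same arrays, with the log2 differences between diets and between 2 ranges of array numbers in view. For these genes the differences are therefore descriptions, with standard errors and 95% intervals and without p-values. Of the 8 genes, 7 had a named probe set, 10 probe sets in all. Nr1h2 had none and was not analysed here.

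The arrays were Affymetrix expression arrays of total hippocampal RNA, 1 for each of 16 female 3xTG-AD mice aged 14 months, on a background that combines mutant human APP and tau transgenes with a mutated mouse presenilin gene. From 10 months of age, 8 mice (animals 1 to 8) ate a control diet, and 8 (animals 9 to 16) ate the same model's PIO diet, with pioglitazone at 84 ppm for a dose of about 18 mg per kg of body weight per day, over about 14 weeks. Pioglitazone is a thiazolidinedione, an agonist of the nuclear receptor PPAR gamma. All mice of both groups carry the 3xTG-AD alleles, and no mice without them were analysed here, so each difference is one between diets within this model. The number at the start of each array description, whose meaning is not given, was 1 to 4 for the first 4 control animals, and 5 or 6 for PIO animals 9 and 10. Control animals 5 to 8 had numbers 10 to 13, and PIO animals 11 to 16 had numbers 17 to 24.

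LXRs bind DNA as dimers with retinoid X receptors, and their ligands in the brain include 24-hydroxycholesterol made by neurons. Since plasma lipoproteins do not cross the blood-brain barrier, cholesterol moves between brain cells on lipid particles built around apolipoprotein E, which ABCA1 and ABCG1 load with sterol and phospholipid. PPAR gamma activation raises LXR alpha and ABCA1 in macrophages, which is the textbook link between thiazolidinediones and this pathway.

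The classical LXR element is a direct repeat of a 6-base receptor site separated by 4 bases, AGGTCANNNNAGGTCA, called DR4. The 250 bases before the annotated start were searched for it on both strands in RefSeq sequence of GRCm38.p6, and the best match was scored over the 12 bases that are not N. Promoters are shown for Abca1 and Srebf1 because the levels of these genes were the most alike of any pair below, with the best match in capitals. The Abca1 window is chr4:53159896-53160145 and the Srebf1 window, before the most downstream of its 3 annotated starts, is chr11:60210472-60210721. Both are on the minus strand and written 5′ to 3′ in the direction of the gene.
Abca1 promoter: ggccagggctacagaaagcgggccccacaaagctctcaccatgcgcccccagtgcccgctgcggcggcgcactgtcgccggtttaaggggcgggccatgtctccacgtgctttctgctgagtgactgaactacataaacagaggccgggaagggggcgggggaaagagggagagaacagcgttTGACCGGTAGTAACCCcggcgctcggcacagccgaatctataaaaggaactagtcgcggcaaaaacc
Srebf1 promoter: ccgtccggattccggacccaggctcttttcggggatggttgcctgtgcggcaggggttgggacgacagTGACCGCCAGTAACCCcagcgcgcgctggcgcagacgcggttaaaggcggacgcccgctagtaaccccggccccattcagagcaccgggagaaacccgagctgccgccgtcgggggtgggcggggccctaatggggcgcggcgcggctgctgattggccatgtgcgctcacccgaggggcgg

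Each of these windows matched the element at 9 of 12 bases, on the strand opposite to the gene, at positions -67 to -52 from the Abca1 start and -182 to -167 from the Srebf1 start. A match at least that good was found in 18.5% of the 32851 promoter windows of the table, so the score alone does not set them apart. The other windows before Nr1h3, Nr1h2, Lpcat3 and Srebf1 starts matched at 8 of 12 bases, and 70.6% of all windows matched at 8 or more. Mylip matched at 6 of 12. No window before an Abcg1 or Smpdl3a start was available, so these genes were not searched. Read on the opposite strand, the Abca1 and Srebf1 matches share 14 of 16 letters. The shared letters, GGGTTACTNNCGGTCA, were chosen after the matches were seen, and were searched exactly on both strands of the table's 300-base windows, which run a little past the start. They were found in 3 of 32851 windows (0.00913%), those of Abca1, Srebf1 and Fasn, the fatty acid synthase gene and a known target of LXR and SREBP-1c. The letters were taken from the Abca1 and Srebf1 windows, so these had to match, and only the Fasn match was not fixed in advance.
Abca1 match: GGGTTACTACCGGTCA
Srebf1 match: GGGTTACTGGCGGTCA
Fasn match: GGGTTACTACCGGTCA

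The Abca1 and Fasn matches are the same 16 letters, and the Fasn match begins at position -225 from its start, on chromosome 11. A match of letters is a description and does not by itself show binding, and no binding data were analysed here.

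Of the receptors, Nr1h3 lay at 2.09 to 2.22 log2 units on all 16 arrays. The lowest, median and highest levels were 2.09, 2.17 and 2.21 in controls and 2.14, 2.17 and 2.22 with PIO, so the groups overlapped almost fully. Its mean stood at the 14.9th percentile of all probe sets, below the filter on low values (the 40th percentile, 3.58 log2 units), so it entered no fit over genes, and a level this low gives no reading of change. The other 9 probe sets passed the filter, the lowest at a mean of 7.27, and the 6 target genes were tested among 12266 genes. Each gene in that fit was represented by its probe set of highest mean.

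No gene of the 12266 differed between diets at an adjusted p under 0.05 by limma, so 0% were called. At an unadjusted p under 0.05 there were 859, and the smallest adjusted p was 0.457. Of the 6 LXR targets 0 were called, and all 6 had a lower mean with PIO. Their median log2 difference was -0.217 against 0.0045 over all genes. That direction belongs to the choice of the genes. In bulk tissue RNA, fewer cells of a type and less RNA per cell cannot be told apart.

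ABCA1 hands cholesterol and phospholipid to lipid-poor apolipoproteins and is the most widely used readout of LXR activity. At its brightest probe set, 1421840_at, the control levels were 11.60, 11.61, 11.50 and 11.44 log2 units in animals 1 to 4 and 10.50, 10.72, 10.61 and 10.75 in animals 5 to 8. The PIO levels were 10.62 and 11.04 in animals 9 and 10, and 10.81, 10.69, 10.35, 10.48, 10.35 and 11.00 in animals 11 to 16. Control animals 1 to 4 lay above every other array, whereas control animals 5 to 8 lay inside the range of the PIO animals.

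Abca1 averaged 11.09 ± 0.49 over the 8 controls and 10.67 ± 0.27 over the 8 PIO animals (mean ± SD). The difference was -0.42 log2 units (SE 0.18, 95% interval -0.81 to -0.038), a level 1.34-fold lower with PIO. Among arrays 10 to 24 alone, with 4 controls and 6 PIO animals, it was -0.032 (SE 0.13, interval -0.32 to 0.26). Among arrays 1 to 6, with 4 controls and 2 PIO animals, it was -0.71 (SE 0.12). Over all arrays but those of control animals 1 to 4 it was 0.022 (SE 0.13), so the lower mean of the PIO group rested on these 4 animals.

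The other Abca1 probe sets also put control animals 1 to 4 above the rest, while the order of the other 12 arrays differed between probe sets. At 1421839_at, control animals 1 to 4 read 9.09 to 9.24 and all other arrays 7.83 to 8.56, a gap of 0.53 log2 units between the lowest of the former and the highest of the latter. At 1450392_at the ranges were 7.87 to 8.08 and 6.64 to 7.72, which left a gap of 0.15. Over the 16 arrays the 3 probe sets correlated pairwise with Pearson r between 0.911 and 0.978. Within arrays 10 to 24 the sign of their diet difference varied, at -0.069 (SE 0.12) for 1421839_at and 0.25 (SE 0.18) for 1450392_at.

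**Figure D1:**
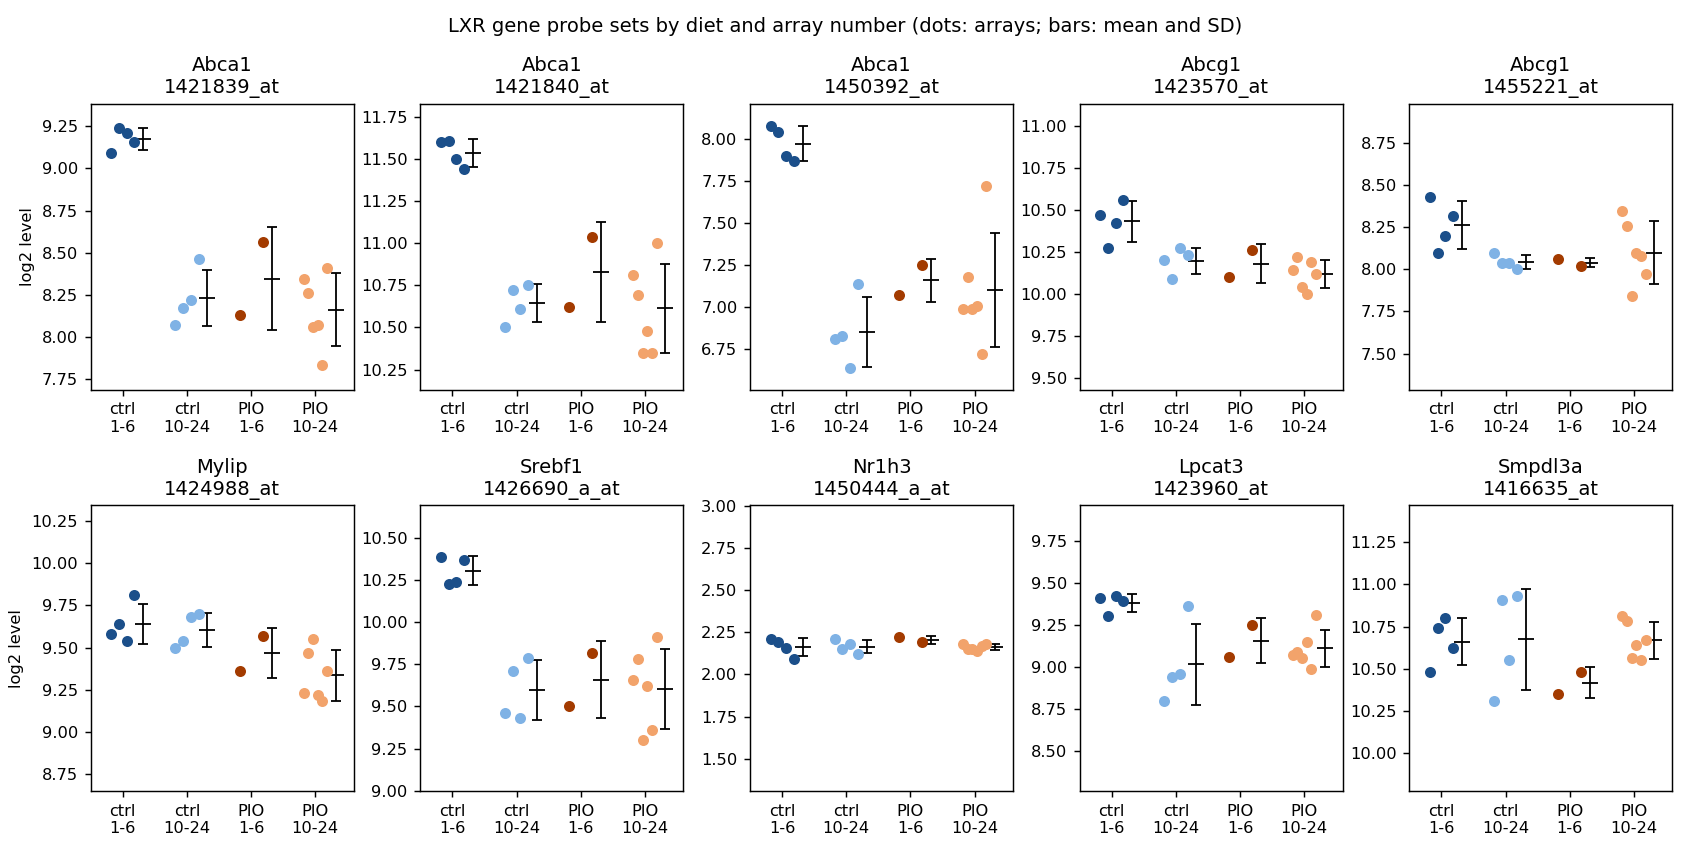
Log2 level of each of the 10 probe sets (one panel each, with its own axis range) in the 16 arrays, split by diet and array number on the horizontal axis; dots are arrays, and bars show the mean and SD. Control animals 1 to 4 (dark blue) stand above all other arrays at the 3 Abca1 probe sets and at Srebf1. Nr1h3 is flat at 2.09 to 2.22. The Mylip mean is lower with PIO in either number range, while PIO animals 10 (9.57) and 13 (9.55) lie inside the control range.

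ABCG1 moves cholesterol onto lipoprotein particles that already carry lipid, downstream of ABCA1. At its brighter probe set, 1423570_at, the lowest, median and highest levels were 10.09, 10.27 and 10.56 in controls and 10.00, 10.13 and 10.26 with PIO. The ranges overlapped, with 5 controls above the highest PIO array and 2 PIO arrays below the lowest control. Control animals 1 to 4 read 10.47, 10.27, 10.42 and 10.56, again above all others, but by a margin of only 0.0029.

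The diet difference of Abcg1 was -0.18 log2 units (SE 0.062), and it was -0.078 (SE 0.058) in arrays 10 to 24 and -0.25 (SE 0.098) in arrays 1 to 6. Its dimmer probe set, 1455221_at, ranged from 8.00 to 8.43 in controls and from 7.84 to 8.35 with PIO, and its diet difference was -0.068 (SE 0.075). The pair of Abcg1 probe sets correlated less closely than those of Abca1, with r = 0.624 and Spearman's rho = 0.459 over 16 arrays. At the dimmer one PIO animals 11 and 12 read 8.35 and 8.26, among the highest 4 arrays, so the separation of control animals 1 to 4 did not hold there.

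SREBF1 encodes SREBP-1, whose form 1c is induced by LXR and drives fatty acid synthesis. The control levels of Srebf1 (1426690_a_at) were 10.39, 10.23, 10.24 and 10.37 in animals 1 to 4 and 9.46, 9.71, 9.43 and 9.79 in animals 5 to 8. The PIO levels were 9.50 and 9.82 in animals 9 and 10, and 9.66, 9.78, 9.30, 9.62, 9.36 and 9.91 in animals 11 to 16. As for Abca1, the first 4 control animals lay above the other 12 arrays, here by 0.31, and the other 4 controls lay among the PIO arrays.

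Srebf1 averaged 9.95 ± 0.40 over the 8 controls and 9.62 ± 0.22 over the 8 PIO animals (mean ± SD), which differ by -0.33 (SE 0.15). In arrays 10 to 24 the difference was 0.011 (SE 0.13, interval -0.27 to 0.30), and in arrays 1 to 6 it was -0.65 (SE 0.11). The probe set reads no single isoform as far as the annotation used here tells.

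LPCAT3 is an LXR-induced enzyme that puts polyunsaturated fatty acids into membrane phospholipids. The control levels of Lpcat3 (1423960_at) were 9.41, 9.30, 9.42 and 9.39 in animals 1 to 4 and 8.80, 8.94, 8.96 and 9.36 in animals 5 to 8. PIO animals 9 to 16 read between 8.99 and 9.31, inside the control range. Control animals 1, 3 and 4 lay above the other 12 arrays, of which control animal 8 was the highest, and control animal 2 lay just under PIO animal 16. The diet difference was -0.078 (SE 0.093) over all arrays, 0.092 (SE 0.10) in arrays 10 to 24 and -0.23 (SE 0.080) in arrays 1 to 6.

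MYLIP, also called IDOL, is a ubiquitin ligase that LXR induces to remove lipoprotein receptors from the cell surface. Mylip (1424988_at) read 9.58, 9.64, 9.54 and 9.81 in control animals 1 to 4 and 9.50, 9.54, 9.68 and 9.70 in control animals 5 to 8. With PIO it read 9.36 and 9.57 in animals 9 and 10, and 9.23, 9.47, 9.55, 9.22, 9.18 and 9.36 in animals 11 to 16. Here the controls formed 1 range whatever their array number, and the lowest of them was above 6 of the 8 PIO arrays.

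Mylip averaged 9.63 ± 0.10 over the 8 controls and 9.37 ± 0.15 over the 8 PIO animals (mean ± SD). The difference was -0.26 log2 units (SE 0.064, interval -0.39 to -0.12), 1.19-fold lower. It was -0.27 (SE 0.084) in arrays 10 to 24 and -0.18 (SE 0.10, interval -0.43 to 0.071) in arrays 1 to 6, and without control animals 1 to 4 it was -0.24 (SE 0.082). Mylip was lowest in PIO animals 15, 14 and 11. Animals 14 and 15 had the highest summed striatal markers and the lowest markers of hippocampal principal cells, with array means of 0.86 and 1.00 log2 units relative to the overall mean for the 7 striatal markers detected of 10, and of -0.57 and -0.66 for all 10 hippocampal ones. Without those animals the Mylip difference was -0.20 (SE 0.062).

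Other marker lists differed in mean between the diets too. Of 12 oligodendrocyte markers 11 were detected, and all 11 had a lower mean with PIO, though 0 were called. Their median difference was -0.216 log2 units, and -0.318 in arrays 10 to 24. Averaged per array, these markers stood at -0.54 in PIO animal 15 and -0.29 in PIO animal 14, below all other arrays, and ran from -0.13 to 0.12 in the other PIO animals and from -0.16 to 0.32 in controls. In arrays 1 to 6, with 2 PIO animals, the oligodendrocyte median was 0.035, and the Mylip difference there was -0.18. All 11 detected microglial markers were lower with PIO, with medians of -0.200 over all arrays and -0.408 in arrays 1 to 6. In arrays 10 to 24, 8 of them were lower and 3 higher, with a median of -0.057. All 9 detected endothelial markers were lower in arrays 1 to 6 (median -0.601), against 5 lower and 4 higher over all arrays. All 10 choroid plexus markers were higher with PIO, with a median of 1.30 and 0 called, and their array means spread from -3.28 to 2.45 in controls and from -3.59 to 2.61 with PIO. The part of any of these marker lists in the Mylip level was not tested.

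SMPDL3A is a phosphodiesterase related to acid sphingomyelinase that LXR induces in human macrophages. Smpdl3a (1416635_at) had lowest, median and highest levels of 10.31, 10.68 and 10.93 in controls and 10.35, 10.60 and 10.81 with PIO. The ranges overlapped almost fully. Its diet difference was -0.061 (SE 0.090) over all arrays, -0.0055 (SE 0.12) in arrays 10 to 24 and -0.24 (SE 0.11) in arrays 1 to 6, and control animals 1 to 4 (10.48, 10.74, 10.80 and 10.62) did not stand apart.

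**Figure D2:**
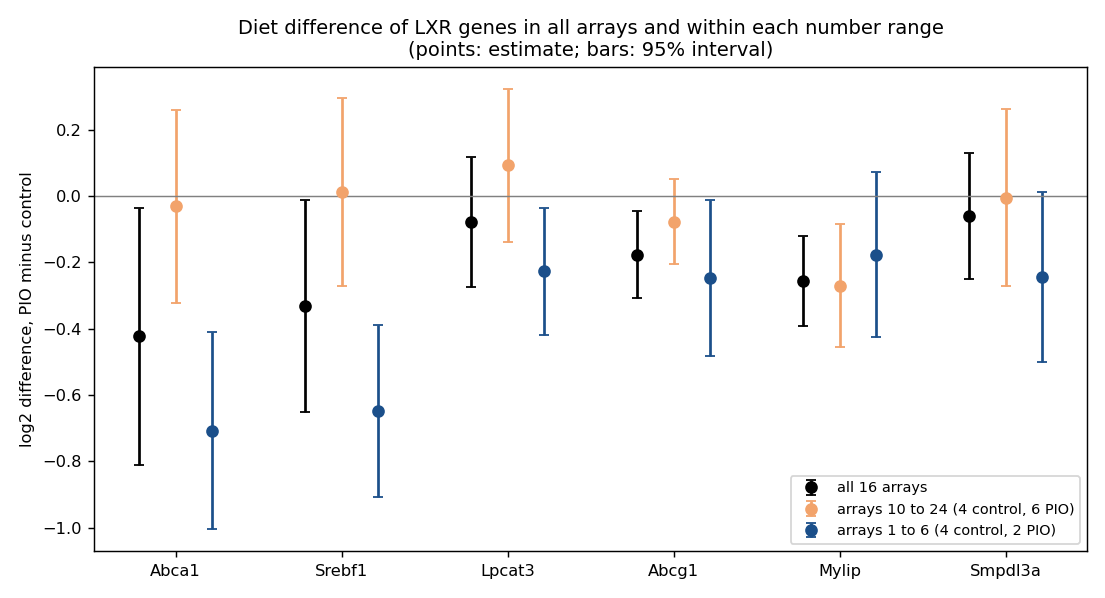
Log2 difference, PIO minus control, of the 6 tested genes over all 16 arrays (black), within arrays 10 to 24 (orange) and within arrays 1 to 6 (blue), with 95% intervals as bars. For Abca1 and Srebf1 the value is near 0 in arrays 10 to 24 (-0.032 and 0.011) and far below 0 in arrays 1 to 6 (-0.71 and -0.65), while Mylip is at -0.27 and -0.18.

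Within arrays 10 to 24, 0% of the 12266 genes were called between diets (936 at an unadjusted p under 0.05, smallest adjusted p 0.546 by limma). The 6 targets had a median difference of -0.0187 there, 4 lower and 2 higher, against 0.0209 over all genes. Within arrays 1 to 6, 0% were called as well (649 unadjusted, smallest adjusted p 0.158), and the 6 targets were all lower, with a median of -0.245 against -0.0295 over all genes. The diet difference in arrays 1 to 6 minus that in arrays 10 to 24 was -0.68 (SE 0.21) for Abca1, -0.66 (SE 0.20) for Srebf1, -0.32 (SE 0.16) for Lpcat3, -0.17 (SE 0.11) for Abcg1 and 0.093 (SE 0.14) for Mylip. By limma's interaction term 0.0245% of all genes were called, namely Emcn, Vwf and the LXR target Scd1, and 0 of the 6 genes described here.

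The range of array numbers was the second contrast. With diet in the model, arrays 1 to 6 exceeded arrays 10 to 24 by 0.60 log2 units (SE 0.13) for Abca1, 0.43 (SE 0.13) for Srebf1, 0.23 (SE 0.085) for Lpcat3 and 0.16 (SE 0.055) for Abcg1. The values were 0.078 (SE 0.068) for Mylip and -0.12 (SE 0.094) for Smpdl3a. Limma called 0.00815% of genes, which was the deubiquitinase gene Usp2 alone, lower in arrays 1 to 6 by a log2 difference of -0.38 (adjusted p = 0.0162), and 1249 had an unadjusted p under 0.05. Since the genes were chosen with this contrast known, nothing is read from their count of 0 called.

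Among control arrays alone, 4 against 4, the difference grew to 0.89 log2 units (SE 0.072, interval 0.73 to 1.06) for Abca1, a 1.86-fold higher level in animals 1 to 4. It was 0.71 (SE 0.092) for Srebf1, 1.64-fold higher, 0.36 (SE 0.11) for Lpcat3 and 0.23 (SE 0.073) for Abcg1, and 0.038 (SE 0.076) for Mylip. Limma called 0.0326% of the 12266 genes there, which were Scd1, St6galnac3, Ccdc80 and Abca1. Abca1 was chosen with the array number difference known, so nothing is read from its being among them. Among PIO arrays alone, 2 against 6, the difference was 0.22 (SE 0.19) for Abca1 and 0.051 (SE 0.17) for Srebf1.

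The code at the end of the array description, whose meaning is also not given, did not follow the same line. Control animals 1 to 3 shared it with control animals 5 and 6 and with PIO animals 9 to 14, and control animal 4 shared another with control animal 7 and PIO animal 15. In the 11 arrays of the largest code set alone, the array number difference was 0.58 (SE 0.15) for Abca1 and 0.37 (SE 0.14) for Srebf1. Whether the array number stands for a shipment, a hybridisation or an order of dissection is not stated, and its part in these differences was not tested.

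Control animals 1 to 4 were all above the other 12 arrays in 21 of 12266 genes (0.171%), a count made after the values were seen. Of the 6 tested genes 3 did so, Abca1, Srebf1 and Abcg1, and since they were chosen with these values known the share is a description. A second list held 16 other known LXR targets, 10 of them tested, and 4 of those stood apart in the same way, namely Scd1, Scd2, Fasn and Apoc1. None of the tested partners and coregulators (6), oxysterol enzymes (4), receptors degraded through MYLIP (2) or other sterol transporters (5) did. All these lists were chosen with earlier results of these data known, so their counts are descriptions as well.

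SCD1 makes monounsaturated fatty acids and is induced by LXR through SREBP-1c and directly. Scd1 read 12.53 to 12.77 in these 4 controls, against 11.67 to 12.05 elsewhere, a mean 1.78-fold higher. Apoc1, an apolipoprotein gene next to Apoe, read 5.96 to 6.39 against 5.08 to 5.88, or 1.43-fold. The shifts of Scd2 and Fasn were smaller, at 1.14-fold and 1.15-fold, with ranges of 15.29 to 15.36 against 15.02 to 15.25 and of 11.41 to 11.54 against 11.16 to 11.39. Fasn is also the gene whose window held the 14 letters shared by the Abca1 and Srebf1 matches above. The other 14 of the 21 genes, named after their values were seen and on none of the lists used here, were Fads2, Mid1ip1, Cnih4, Klhl25, Smc6, Prkd3, Pygb, Psph, Bclaf1, Gcsh, Pml, Nxpe3, Entpd2 and Wdfy2. Fads2, a fatty acid desaturase that recurs below, was 1.24-fold higher.

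**Figure D3:**
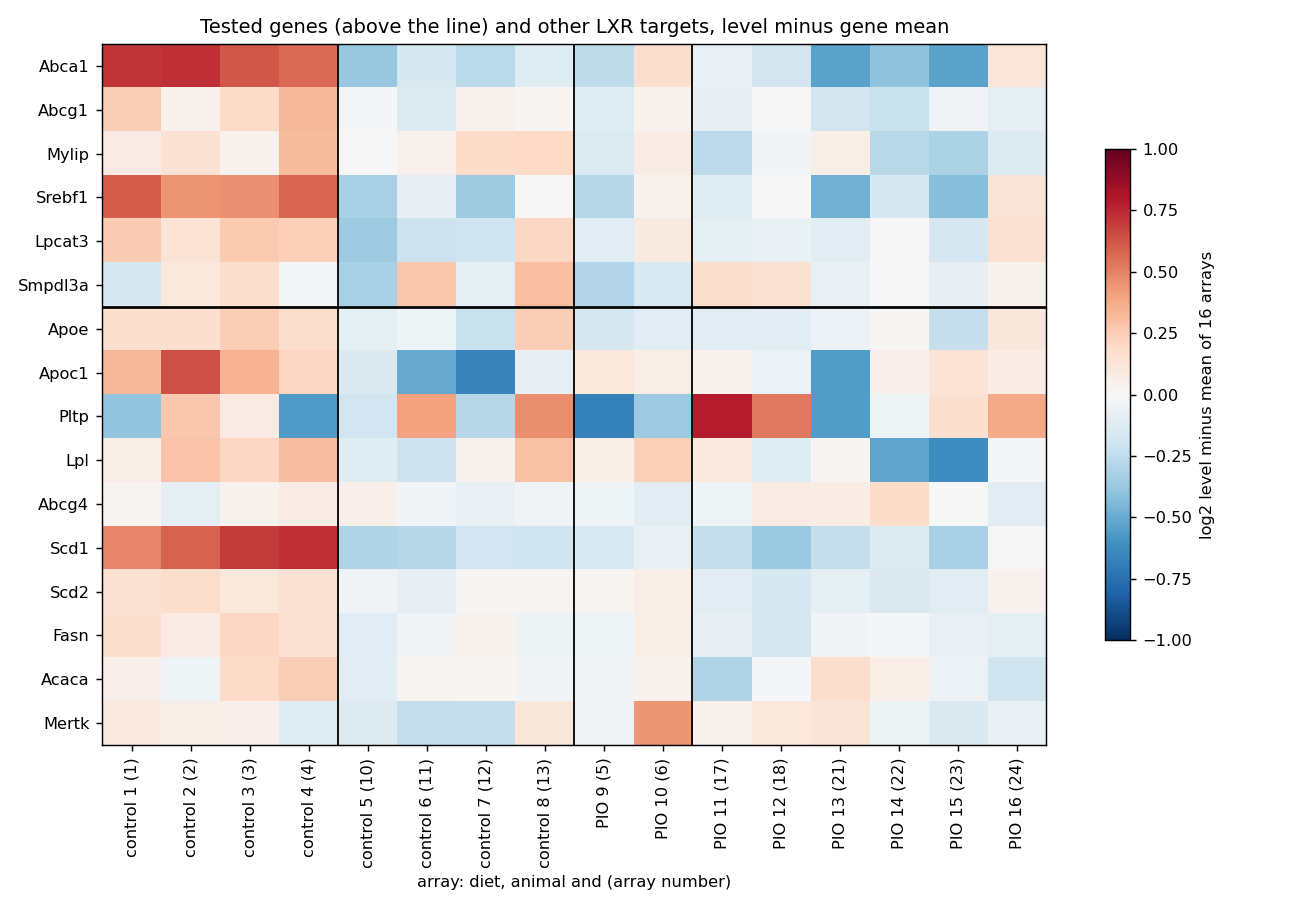
Log2 level minus the gene's mean over 16 arrays (colour, from -1 blue to 1 red) for the 6 tested genes above the line and 10 tested genes of the list of other LXR targets below it, with arrays in columns by diet, animal and array number in brackets. The first 4 columns, control animals 1 to 4, are red for Abca1, Srebf1, Scd1 and Apoc1, and no such block is seen for Mylip.

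Cell markers were read in the same arrays. The mean of the 11 detected of 12 microglial markers relative to its overall mean ran from 0.16 to 0.45 log2 units for control animals 1 to 4 and from -0.22 to 0.51 for control animals 5 to 8. PIO animals 9 and 10 were at -0.14 and -0.19, and the other PIO animals between -0.25 and 0.22. Summed on the linear scale the list was at 13.95 to 14.17 log2 units in control animals 1 to 4, 13.60 to 14.27 in the other 4 controls and 13.50 to 14.04 with PIO. Between control animals 1 to 4 and 5 to 8, all 11 markers were higher in the former (median difference 0.292, against 0.0181 over all genes). Within arrays 1 to 6 all 11 were lower with PIO (median -0.408, against -0.0295 over all genes). Control animal 8 had the highest microglial mean of all. Its Abca1 level, 10.75, was inside the PIO range, and was the highest among control animals 5 to 8. Among those animals it was also highest for Srebf1 (9.79), Lpcat3 (9.36), Mylip (9.70) and Smpdl3a (10.93). For Abcg1 (1423570_at) it was not, at 10.23 against 10.27 in control animal 7. The 12 astrocyte markers, all detected, had array means of -0.039 to 0.19 for the first 4 controls, against -0.26 to 0.10 elsewhere. The part of either marker list in the LXR target levels was not tested.

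The wider pathway was read from lists of genes chosen with earlier results known. None of the 27 tested genes on 5 lists was called in either contrast by limma. Among 6 partners and coregulators, 3 were higher and 3 lower with PIO. Rxrg, a dimer partner of LXRs, had the smallest p, with 4.91 to 5.45 log2 units in controls and 5.46 to 6.56 with PIO, and a difference of 0.61 (SE 0.15, adjusted p = 0.532). Rxra, Rxrb and Ncoa6 differed by 0.065 (SE 0.063), -0.023 (SE 0.046) and 0.057 (SE 0.052).

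Among the 4 tested enzymes that make or remove oxysterol ligands, 2 were higher and 2 lower with PIO. Cyp46a1, which makes 24-hydroxycholesterol in neurons, differed by 0.087 (SE 0.088) between diets and by -0.18 (SE 0.086) between array number ranges. Cyp7b1, which removes side-chain oxysterols, differed by -0.16 (SE 0.092) and 0.18 (SE 0.091). The substrates of MYLIP measured here, the receptors Vldlr and Lrp8, differed between diets by -0.0010 (SE 0.055) and 0.00074 (SE 0.057). Neither mRNA therefore showed a shift beside the lower Mylip level, and MYLIP acts on these receptors as proteins, which arrays do not measure.

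Of the 10 other LXR targets, 7 were lower and 3 higher with PIO, with a median of -0.0986, and 5 were lower and 5 higher within arrays 10 to 24, with a median of -0.0025. Scd1 differed by -0.38 (SE 0.16, adjusted p = 0.681) over all arrays and by 0.026 (SE 0.073) in arrays 10 to 24, the same pattern as Abca1. Scd2 differed by -0.12 (SE 0.048) and -0.077 (SE 0.050). Between array number ranges, 8 of the 10 were higher in arrays 1 to 6, with 0.54 (SE 0.11, adjusted p = 0.200) for Scd1 and 0.15 (SE 0.035, adjusted p = 0.211) for Scd2. Of the 5 other sterol transporters 4 were lower and 1 higher with PIO. Npc1, which exports cholesterol from lysosomes, differed by -0.11 (SE 0.049), Scarb1, a receptor for high-density lipoprotein, by -0.067 (SE 0.041) and Abca7 by 0.14 (SE 0.14).

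The genes most like each target were ranked by Pearson r over the 16 arrays among the other 12265 genes, as a description, since all arrays share the separation of control animals 1 to 4. For Abca1 the first was Srebf1 (r = 0.962), followed by Scd1 (0.914) and Fads2 (0.906), and for Srebf1 they were Abca1, Fads2 (0.892) and Scd1 (0.886). Within arrays 10 to 24 (n = 10), r with Abca1 was 0.884 for Srebf1, 0.603 for Fads2 and 0.503 for Scd1. For Abcg1 the closest were Slc1a1 (0.815), Gsk3b (0.813) and Klhl6 (0.798). For Mylip the closest were Sptb, which encodes a spectrin (0.919), Desi1 (0.916) and Ppp1r16b (0.901), with 0.933, 0.966 and 0.934 within arrays 10 to 24.

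Whether the 6 genes moved together apart from the array number range was examined in arrays 10 to 24, over 10 animals of both diets. Of the 15 pairs, only Abca1 with Srebf1 passed a permutation test with adjustment over the 15 (100000 resamples, two-sided). The genes were chosen with differences over these same arrays in view, and the 15 pairs were not set against pairs of other genes. No conclusion on shared regulation is therefore drawn from the test. Their Pearson r was 0.884 (unadjusted p = 0.00092, adjusted p = 0.0138) and their Spearman's rho 0.855 (unadjusted p = 0.00281, adjusted p = 0.0421), and r was 0.791 without the 2 arrays farthest from the median of Abca1. Both genes were high in PIO animal 16 and low in PIO animals 13 and 15, and the 4 controls lay between. Srebf1 had r = 0.654 with Lpcat3 and 0.667 with Smpdl3a, each at an adjusted p of 0.206 in the permutation test. Mylip had r = 0.103 with Abca1, and Abcg1 had 0.184, neither past the test.

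**Figure D4:**
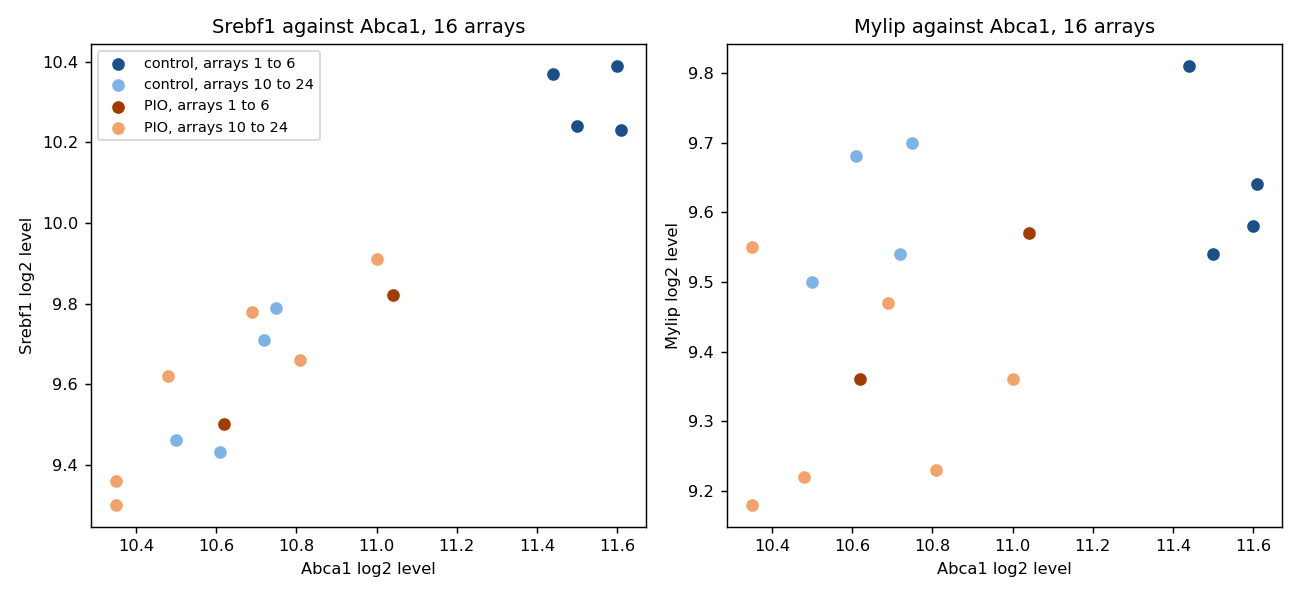
Log2 level of Srebf1 (left) and Mylip (right) against that of Abca1, one dot per array, coloured by diet and array number range. Control animals 1 to 4 form the cluster at the upper right on the left. Srebf1 rises with Abca1 in all arrays (r = 0.962). In arrays 10 to 24 alone, which also leave out PIO animals 9 and 10, r is 0.884. For Mylip r is 0.492 in all arrays and 0.103 in arrays 10 to 24. The genes were chosen with values of these arrays in view, so each r is a description.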

How the data were processed

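Total RNA of 16 hippocampi was measured on Affymetrix arrays. The authors deposited a log2 value per probe set and array, the scale being read from the values. Per the submitters' processing notes, MAS5, GCRMA and R 2.7.1 were used, and no role is stated for any of them. GCRMA-type background correction holds unexpressed probe sets in a narrow low band. No further normalization was applied. Values ran from 0.33 to 16.6, array medians from 5.65 to 5.76, and r between any pair of arrays was 0.994 to 0.998 over all probe sets. Precision is limited by how many arrays there are.

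Of 45101 probe sets, 64 controls were left out, 34945 had 1 gene symbol in the platform annotation, 932 several and 9160 none. Those with 1 symbol and a mean above the 40th percentile (3.58) were kept, 22811 in all before symbols were merged, and the brightest probe set stood for each of 12266 genes. Differences, standard errors and adjusted p (Benjamini-Hochberg over all genes, called under 0.05) came from limma 3.58.1 (lmFit, eBayes) under R 4.3.3. Every probe set of the 8 genes was also fitted without the filter. The limma step was tested on simulated data. Correlations and promoter matches used Python 3.11.15, numpy 2.4.6 and scipy 1.17.1.

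The 8 genes and all gene lists were chosen with earlier results of these data known. The genes named are the 8, up to 2 of each pathway list with the smallest p in each contrast, and the 3 most like each of Abca1, Abcg1, Mylip and Srebf1 by Pearson r. Genes outside that rule are said to be named after their values were seen, or were the few called in a contrast. Alternatives were other filters, every probe set alone, shared-sequence probe sets left out, quantile normalization, a common median, the description code as a block or its largest set alone, array weights, a robust prior with trend, the array number range as a block or 1 range alone, and each animal left out.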

Additional observations from a re-analysis of the deposited data

How the results depend on the processing

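The diet comparison called 0 genes under each of 14 other settings and with each animal left out in turn. The Mylip difference stayed between -0.27 and -0.16 over those settings and between -0.29 and -0.23 with 1 animal left out, its smallest size coming from the largest description code set alone. Leaving out 1 animal moved the Abca1 difference between -0.51 and -0.35. Leaving out control animals 1 to 4, chosen after the values were seen, moved it from -0.42 to 0.022 and that of Srebf1 from -0.33 to 0.024, and arrays 10 to 24 alone gave 0.011 for Srebf1. The count of genes called between array number ranges, 1 in the report, was 2 with quantile normalization and 2 with the description code as a block. It was 7 with array weights, 4 in control arrays alone, 3 without the diet term and 5 in PIO arrays alone, a setting added after the data were seen. It was 0 with a common median (1414 genes at an unadjusted p under 0.05, smallest adjusted p 0.0624 by limma) and 0 in the largest code set alone (1568, smallest adjusted p 0.117). With 1 animal left out it ran from 0 to 3, at 0 when control animal 6, control animal 7, PIO animal 9 or PIO animal 10 was dropped and at 3 when PIO animal 11 was. The cause of these changes was not tested. No setting turned the sign of the array number difference of Abca1 (0.22 to 0.89) or Srebf1 (0.051 to 0.71). No paired analysis was possible because control animals are numbered 1 to 8 and PIO animals 9 to 16, with no number in common. The signal of Nr1h3, in the lowest band of probe sets, sets what can be said of it.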

Other observations

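The genes closest to Lpcat3 and Smpdl3a were outside the rule for naming genes and were chosen after their values were seen. Lpcat3 was closest to Macrod1 (r = 0.864 over 16 arrays, 0.934 in arrays 10 to 24), Zmpste24 (0.838) and Srebf1 (0.838). Smpdl3a was closest to Bsg, which encodes the membrane glycoprotein basigin (0.917), Lgals3bp (0.904) and Plxnb2 (0.902), with 0.935, 0.931 and 0.945 in arrays 10 to 24. Across arrays Smpdl3a was lowest in control animal 5 and PIO animal 9 (10.31 and 10.35 log2 units) and highest in control animals 6 and 8 (10.91 and 10.93). The choroid plexus marker list, all 10 detected, was at -2.93 and -2.02 in the first pair and at 2.08 and 2.45 in the second. Not all arrays followed this order. In PIO animal 10 the list was at 1.63 and Smpdl3a at 10.48. In PIO animals 15 and 13 it was at 1.01 and -3.59, with Smpdl3a at 10.55 and 10.56. PIO animal 11, with the highest choroid plexus mean (2.61), had Smpdl3a at 10.81, and the part of these markers in the Smpdl3a level was not tested. These arrays share the whole hippocampal preparation, and the values are descriptions without a test.

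The genes that passed limma's interaction term beside Scd1 were Emcn and Vwf, which mark endothelium, at -1.19 (SE 0.15, adjusted p = 0.015) and -3.16 (SE 0.48, adjusted p = 0.0453). The endothelial marker list lay at -0.55 and -0.52 in PIO animals 9 and 10 and at -0.16 or higher in the others, so PIO arrays 5 and 6 differed from the rest in these genes as well.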
